A study of Callithrix jacchus with 3 samples.

Results

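Small RNAs of the common marmoset testis were examined at their 3′ ends, among 5′ ends that were read often with MARWI, a marmoset PIWI protein. A 5′ end was defined by the first 20 bases of a sequence, and all MARWI-IP sequences that share them form 1 group. Members were chosen by their reads: the 13105 groups with 1000 or more MARWI-IP reads of 4185946 groups in all, or 0.313%. They hold 78069413 of the 110209593 MARWI-IP reads, 70.8%, and from 1000 to 2612639 reads each, with a median of 2149. Because abundance in MARWI-IP selected them, that abundance is a description and no finding.

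Wild type adult animals were used throughout. The MARWI-IP library, small RNA recovered after immunoprecipitation of MARWI from testis lysate, is labelled as 2 replicates, with ages of 41 and 51 months, and is deposited as 1 column of reads per sequence. The total small RNA library, size-selected on a gel, comes from testis of 41 months and also has 1 column. RNA-seq of the same tissue was not used here. No spread between animals can be given for any value below, so no test was made. Each 95% interval printed is an exact (Clopper-Pearson) one for a share. An interval on a share of groups treats groups as independent draws, and one on a share of reads treats reads so. Neither assumption is met in full: no molecular identifiers mark the reads, and groups from 1 locus are not independent. No interval covers a spread between animals. No control immunoprecipitation is among the samples.

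PIWI proteins of the germ line hold piRNAs, small RNAs that guide them to transposon and other transcripts. A piRNA precursor is bound at its 5′ end, usually at a uridine, and its 3′ end is then shortened by a trimming nuclease until the PIWI protein covers what is left, after which a methyl group is added to the last sugar. One 5′ end can therefore occur with several 3′ ends, and these variants are what is described here.

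The following groups show the main shapes of a 3′ end. Each line gives the longest form with at least 10 MARWI-IP reads that extends the commonest one, 5′ to 3′ with T for U, and capitals mark each base at which 10% or more of the group's MARWI-IP reads end. The first 4 lines are among the 5 groups with most reads, and the other one of those 5 is not printed.
tcccacat: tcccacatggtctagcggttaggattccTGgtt
ttagattg: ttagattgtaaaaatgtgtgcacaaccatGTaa
tcccatat: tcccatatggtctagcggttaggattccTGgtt
ttgatggt: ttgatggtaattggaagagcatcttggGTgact
The next 3 have the highest share of 1 form among the 1000 most abundant groups.
tcattaca: tcattacataggcatgattgacaagcctgT
tacatcta: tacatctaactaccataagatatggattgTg
ttctacaa: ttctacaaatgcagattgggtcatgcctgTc
Another 3 have separated 3′ ends with little between them, and were chosen after their values were seen.
tggaatat: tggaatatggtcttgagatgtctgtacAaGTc
tctcagaa: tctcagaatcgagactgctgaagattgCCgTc
ttggaatt: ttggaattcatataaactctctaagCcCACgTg

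The 2 groups tcccacat and tcccatat start as the 5′ part of tRNA-Glu-TTC, the RNA that carries glutamate to its codon, and the others were not assigned to a gene. In tcccacat, 2177351 of 2612639 MARWI-IP reads were the 29 nt form (83.3%, interval 83.3 to 83.4), and 11.7% were 30 nt. In tcccatat the 29 nt form had 79.2% and the 30 nt length 16.4%. The total library gave these 2 groups 79.7% and 74.1% at 29 nt, so the same end led in both libraries. The ttagattg group ended at 30 nt in 65.8% of its 1630798 MARWI-IP reads and at 31 nt in 16.3%, against 61.3% and 17.1% of its 126443 total reads. In ttgatggt the commonest end was at 29 nt, with 66.5% in MARWI-IP and 65.9% in total, and the 28 nt length followed with 13.6% and 13.4%. In each of these 4 groups the share at the commonest length was higher in MARWI-IP.

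A single 3′ end held almost every read in tcattaca, tacatcta and ttctacaa. Their 30 nt form had 16267 of 16341 MARWI-IP reads (99.5%), 18291 of 18380 (99.5%) and 19589 of 19763 (99.1%). All 3 end in T, and in the total library 30 nt was again the commonest length, with 86.8% of only 38 reads, 96.1% of 388 and 96.9% of 668.

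Most groups were less sharp. The share of the commonest form had a median of 57.0% over the 13105 groups, a 5th percentile of 33.2% and a 95th of 87.0%. It reached 90% in 405 groups (3.09%, interval 2.80 to 3.40) and 50% in 8570 (65.4%, interval 64.6 to 66.2), and it stayed under 30% in 350. The SD of length within a group had a median of 1.16 nt. The commonest length was 29 nt in 39.1% of groups, 30 nt in 37.4%, 31 nt in 10.9% and 28 nt in 9.55%. Lengths of 24 to 27 nt and of 32 and 33 nt led in few: 15, 17, 40 and 116 groups for 24, 25, 26 and 27 nt, and 176 and 26 groups for 32 and 33 nt.

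In most groups the variants came close to 1 sequence per length, as truncations of 1 sequence would. Whether the sequences of different lengths are nested was not checked directly over all groups. Whether mismatched reads were removed before deposit is not given in the sources used here, so other sequences may have been commoner in the RNA. Within 24 to 33 nt a group of nested truncations can have 10 sequences at most, and 12178 groups (92.9%) had 10 or fewer, with a median of 9. The commonest sequence of each length together held 99% or more of the reads in 12498 groups (95.4%). More than 1 base at a position between 21 and 28, each time with at least 100 reads there and no base at 95%, was found in 394 groups (3.01%). In those 394 the commonest form had a median share of 40.7%, against 57.5% in the other groups.

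The lowest shares among the 1000 most abundant groups show both situations. The 46599 MARWI-IP reads that start tgtgaaga are split between sequences that differ after base 20, where capitals now mark a base that differs from the first line.
tgtgaaga, form 1: tgtgaagatgatagctaagggaacagaggc
tgtgaaga, form 2: tgtgaagatgatagctaagggaacagaTgc
tgtgaaga, form 3: tgtgaagatgatagctaaggTaacagagg
Form 1 had 8697 MARWI-IP reads (18.7%), the lowest share of a commonest form in that ranking. Form 2 had 6710 (14.4%) and form 3 had 2427 (5.21%). In the total library they had 168, 125 and 24 of 1013 reads, so among these printed forms the order was the same.

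In the group that starts tccaactg, 2 downstream sequences share the 5′ end.
tccaactg, form 1: tccaactgctgtacgacacagagcccgg
tccaactg, form 2: tccaactgctgtacgacacagagccAgg
tccaactg, form 3: tccaactgctgtacgacacagagcccggc
tccaactg, form 4: tccaactgctgtacgacacagagccAggcg
The 28 nt forms 1 and 2 had 13849 and 7955 of 60793 MARWI-IP reads, but 347 and 186 of 37772 total reads. Form 3, 1 base longer than form 1, had 3323 MARWI-IP reads (5.47%) and 18276 total reads (48.4%). Form 4 had 7340 (12.1%) and 5168 (13.7%). The 29 nt form that extends form 2 by 1 base had 5822 (9.58%) and 5684 (15.0%), the most total reads of the forms with that A. For both sequences the leading 3′ end thus lay 1 base further in total than in MARWI-IP.

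The group that starts tgaacacg is the other one of the 3 lowest, and its leading forms are all nested.
tgaacacg: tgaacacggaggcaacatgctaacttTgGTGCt
Its MARWI-IP reads were spread over 30 nt (24.3%), 31 nt (23.3%), 29 nt (21.9%), 27 nt (13.2%) and 32 nt (13.1%), with 2.26% at 28 nt. In the total library 27 nt alone had 56.6% of 3541 reads. The other 4 leading lengths had 11.8% (30 nt), 10.8% (31 nt), 9.26% (29 nt) and 7.37% (32 nt) there, so the same 5 ends led in both libraries in different proportions.

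Counting lengths that hold 10% or more of a group, 14.3% of groups had 1, 46.3% had 2, 30.1% had 3 and 8.55% had 4. A group was termed mixed where its second length had 50% or more of the reads of its first. That held for 5012 groups (38.2%, interval 37.4 to 39.1). The second length was adjacent to the first in 83.5% of mixed groups, 1 nt shorter in 45.7% and 1 nt longer in 37.8%. The leading pairs were 29 and 30 nt (41.7% of mixed groups), 28 and 29 nt (22.9%) and 30 and 31 nt (15.0%). A further 4.23% had 29 and 31 nt, and 3.95% had 28 and 30 nt, with the length between them rarer than both.

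Sharpness and abundance moved together to a small degree. Groups with 1000 to under 2000 MARWI-IP reads had a median share of the commonest form of 56.4%, those with 10000 to under 100000 had 59.1%, and the 52 groups with 100000 or more had 66.5%. The 59843 groups of 100 to under 1000 reads, below the threshold, had 54.5%. Just inside it, 1032 groups of 1000 to under 1100 reads had 57.5% and 74.8% of them had a commonest length of 29 or 30 nt. Just outside, 1272 groups of 900 to under 1000 reads had 54.8% and 73.9%. The first base was T, uridine in the RNA, in 12238 members (93.4%, interval 92.9 to 93.8) and in 83.9% of the groups of 100 to under 1000 reads. Base 10, which is often adenosine in piRNAs made by the ping-pong cycle, was A in 30.4% of members. Whether that share is raised over neighbouring positions or over groups below the threshold was not tested. By first base, the median share of the commonest form was 57.0% for the 12238 groups that start with T, 56.9% for 306 with A, 57.6% for 327 with C and 57.8% for 234 with G. The position of the end varied more: a length of 31 to 33 nt led in 18.04% of groups with C and 9.83% with G, and a length of 24 to 28 nt in 10.7% and 17.9%. The median of the groups' mean lengths was 29.3 nt with C and 28.9 nt with G.

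The bases around the commonest 3′ end had a marked composition. Those beyond the end were read only from sequences of either library that start 1 or more bases downstream, so that a group's own long forms did not decide them. In this way 11900 of 13105 groups (90.8%) could be read to position 33, and at position 29 the reading differed from that of the group's own sequences in 0 of 11779 groups. Over positions 24 to 33 the composition was A 24.8%, C 22.3%, G 25.3% and T 27.6%. At the second-last base of the commonest form A was rare, 8.29%, and G had 39.2%, T 31.8% and C 20.7%. The last base was C in 30.6%, T in 29.8%, G in 20.5% and A in 19.1%. The base after the end was A in 33.4% and C in 15.3%, and the third-last base was A in 36.2% and C in 16.4%. The second base after the end was A in 24.8%, C in 21.2%, G in 27.2% and T in 26.8%, close to the composition of the window.

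Similar compositions were found below the read threshold and in the other library. In 46913 readable groups of 100 to under 1000 MARWI-IP reads, A made up 9.08% of second-last bases and 34.8% of bases after the end, and C made up 30.9% of last bases. In 8421 readable members with at least 100 total reads, the commonest end of the total library had A in 8.55% of second-last bases, A in 33.97% of next bases and C in 33.1% of last bases. For the same 8421 groups MARWI-IP gave 8.25%, 33.5% and 31.1%. Both libraries were made with the same kind of small RNA library kit, so their likeness does not separate the RNA from the preparation.

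Sharp and diffuse groups differed at these bases, among the 8421 readable members with at least 100 total reads. Where the commonest form had 80% or more of MARWI-IP reads (972 readable groups), the second-last base was A in 2.26% and the last base was C in 48.6% and A in 7.41%. Where it had under 40% (1136 groups), the second-last base was A in 21.1% and the last base was C in 23.4% and A in 28.5%. In total, the corresponding shares were 4.11%, 51.8% and 7.77% in 901 sharp groups, and 22.2%, 25.4% and 28.8% in 1236 diffuse ones. Length of the end mattered too, here among all 11900 readable groups in MARWI-IP. For ends at 28 nt the next base was A in 49.8% and C in 5.12%, and the last base was C in 23.3%. For ends at 31 nt the next base was A in 26.9%, but the third-last was A in 50.3% and the last C in 46.4%. Rarity of A at the second-last base held at each of the 4 lengths, where the shares were 6.95% (28 nt), 9.11% (29 nt), 8.37% (30 nt) and 6.57% (31 nt).

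The same bases were also compared at a fixed length, in the 8421 readable members with at least 100 total reads. Where the 2 bases before a cut at 30 nt had A as second-last base, a mean of 14.9% of a group's MARWI-IP reads ended there (1984 groups), against 39.97% with G (2360 groups), 34.6% with T and 32.8% with C. With C as last base 43.9% ended at 30 nt (1889 groups), with T 34.1%, with G 24.9% and with A 22.5%. At 29 nt, A as next base went with 43.3% (2032 groups) and C with 20.8% (1889 groups). The total library gave 14.3% with A and 38.3% with G as second-last base at 30 nt, and 41.8% with A and 19.0% with C as next base at 29 nt.

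Taking the 3 bases jointly widened the range. Of combinations found in 50 or more groups, ends at 29 nt were rarest with A and G before the end and C after it, 4.90% of MARWI-IP reads (170 groups) and 4.11% of total reads. They were commonest with T and C before the end and A after it, 58.9% and 57.6% (148 groups). At 30 nt the same 2 combinations were again the lowest and the highest, with 8.65% and 7.64% (151 groups) and with 57.3% and 58.6% (158 groups). These are means over groups, many of which overlap on 1 locus.

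In 2247 groups (17.1%) the length profile had 2 peaks with a rarer length between them, a shape looked for after the data had been seen. For 1318 of these a single length lay between the peaks, and 1187 could be read around it. The last base at that skipped length was C in 4.72%, its second-last base was A in 46.8%, and the next base was A in 3.54% and G in 49.5%. At the shorter of the 2 peaks the second-last base was A in 8.09% and the next base A in 46.6%. At the longer one the last base was G in 49.5% and the next base A in 39.9%, but its second-last base was A in 46.6%. Some of these values are the same base named from different ends. The base after the shorter peak is the last base at the skipped length and the second-last base at the longer peak. Likewise the base after the skipped length is the last base at the longer peak. By the share of A at the second-last base the skipped end and the longer peak were thus alike, and both differed from commonest ends in general. The other second-last bases were not alike: C had 26.8% at the skipped end and 4.72% at the longer peak, and G had 12.3% and 29.3%. By the base after the end the skipped length stood apart from both peaks, with few A.

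The group tggaatat is an example. Of its 604139 MARWI-IP reads, 13.1% ended at 28 nt, 3.48% at 29 nt and 59.5% at 30 nt, with 19.0% at 31 nt, and its 29 nt form ends in 2 A bases followed by G. In the total library the same lengths had 15.7%, 2.34%, 60.9% and 17.6%. In tctcagaa, 60.8% of 409389 MARWI-IP reads ended at 29 nt, 1.48% at 30 nt and 20.8% at 31 nt, and in total 58.3%, 2.16% and 16.1%. The ttggaatt group used 5 ends in MARWI-IP: 26 nt with 19.2%, 28 nt with 12.9%, 29 nt with 21.2%, 30 nt with 24.4% and 32 nt with 15.7%, while 27 nt had 3.23% and 31 nt 2.59%. Its total reads were spread in a like way, with 9.45% (26 nt), 13.3% (28 nt), 26.6% (29 nt), 24.9% (30 nt) and 18.1% (32 nt), against 2.67% and 4.11% at 27 and 31 nt. Its commonest MARWI-IP end, at 30 nt, has A as second-last base, and so has the commonest end of tggaatat, although A was rare there over all members.

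Many members overlap: 9443 (72.1%) had another member starting 1 to 12 nt away. Overlapping pairs allow the 3′ ends of neighbouring 5′ ends to be compared. Of 1762 pairs that start 1 nt apart, 42.4% had the commonest 3′ end at the same place, so that the downstream form was 1 nt shorter, and 34.6% had the same commonest length. At 2 nt apart 13.3% of 1815 pairs shared the 3′ end, at 3 nt 3.75% of 1733 and at 4 nt 1.98% of 1215. Because lengths span only 24 to 33 nt, larger distances leave little or no room for a shared 3′ end, so this fall alone does not tell whether ends stay in place. From 8 to 12 nt apart the downstream form was 1 nt shorter in 23.1% to 26.9% of 615 to 821 pairs per distance, against the 42.4% found at 1 nt apart. The total library had 42.4% at 1 nt (1017 pairs), 15.6% at 2 nt and 3.35% at 3 nt.

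The 3 pairs with most reads in their smaller group all come from 1 locus, where 3 members start within 3 bases.
ctgtaact: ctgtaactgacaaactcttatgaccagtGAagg
tgtaactg: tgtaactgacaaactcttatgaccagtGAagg
taactgac: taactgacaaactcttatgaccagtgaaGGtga
The ctgtaact group, 1 nt upstream of tgtaactg, had 116110 MARWI-IP reads, with 35.8% at 29 nt and 47.8% at 30 nt. The tgtaactg group had 128605, with 19.8% at 28 nt and 53.8% at 29 nt, so that both groups ended most often at the same A and next at the G before it. The taactgac group starts 2 nt further and had 427237 reads, with 17.0% at 29 nt and 66.4% at 30 nt. Its 2 leading ends are the 2 G bases that lie beyond the ends of the other 2 groups. In total the leading lengths were the same, with 38.8%, 39.9% and 76.8% of reads.

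MARWI-IP and total were compared in the 9292 members with 100 or more total reads of 24 to 33 nt. Total had 6738540 reads of members, 52.7% of its 12792323 reads in that range, with a median of 174 per member, so its profiles are coarser. The commonest length was the same in 7653 groups (82.4%, interval 81.6 to 83.1), longer in MARWI-IP in 814 (8.76%) and shorter in 825 (8.88%). It was the same in 92.3% of 5720 groups that were not mixed in MARWI-IP and in 66.4% of 3572 that were. More depth in the total library did not go with a higher figure, which was 76.5% in the 1018 members with 1000 or more total reads. More MARWI-IP reads did: the figure was 86.2% in the 2678 of these groups with 5000 or more. The median share of the commonest form was 56.5% in MARWI-IP and 55.5% in total for these 9292 groups.

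Mean length hardly differed for the typical group. MARWI-IP minus total had a median of -0.01 nt, a 5th percentile of -0.59 nt and a 95th of 0.56 nt, and 6265 groups (67.4%) lay within 0.25 nt. A difference of 1 nt or more was found in 304 groups (3.27%). By the share of reads that would have to change length to make a group's profiles equal, the median was 11.2% and the 95th percentile 41.2%.

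Longer reads were a larger part of total than of MARWI-IP when reads were pooled. Lengths of 31 to 33 nt held 10.96% of member reads in MARWI-IP and 20.3% in total. Averaged over groups, so that each counts once, the figures were 12.9% and 14.6%. Without 11 groups that start as tRNA-Gly or tRNA-Glu 5′ parts, left out after seeing the data, the pooled figures were 11.8% and 14.6%. Without the 10 groups with most MARWI-IP reads they were 11.95% and 20.8%, so leaving those out narrowed the gap only slightly. Outside the deposited MARWI-IP range, 2.45% of members' total reads of 20 to 51 nt were 20 to 23 nt and 0.467% were 34 to 51 nt, and 5 members held 68.8% of the latter. MARWI-IP has only 24 to 33 nt, so its lengths outside that range were not analysed here.

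Groups with the largest difference in mean length have distinct ends in the 2 libraries. In these lines capitals again mark ends with 10% or more of MARWI-IP reads, and the first 3 were longer in MARWI-IP.
tgaaatac: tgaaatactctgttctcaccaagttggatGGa
ttcttcac: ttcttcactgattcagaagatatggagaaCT
tgacttat: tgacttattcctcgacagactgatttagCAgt
tgaacgat: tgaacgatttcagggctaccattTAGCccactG
tatggtct: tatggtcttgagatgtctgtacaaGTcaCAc
tgatacca: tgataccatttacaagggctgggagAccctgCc
The tgaaatac group had 58.2% of 4111 MARWI-IP reads at 30 nt, but 7.96% of 3932 total reads there and 48.9% at 26 nt, a mean length 3.34 nt greater in MARWI-IP. In ttcttcac, MARWI-IP had 53.7% of 1077 reads at 30 nt, and total had 36.2% of 235 reads at 27 nt, a difference of 3.01 nt. In tgacttat, 29 nt had 60.6% of 18273 MARWI-IP reads and 16.5% of 7572 total reads, while 25 nt had 3.78% and 65.3%. All 3 groups had both ends in both libraries and differed in which one led.

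The tgaacgat group had 29.2% of 2353 MARWI-IP reads at 33 nt and 84.5% of 6448 total reads there, and between 11.3% and 20.9% of MARWI-IP reads at each length from 24 to 27 nt. Its mean length was 28.4 nt in MARWI-IP and 32.7 nt in total. In tgatacca, 26 nt had 41.2% of 1515 MARWI-IP reads and 6.99% of 372 total reads, and 32 nt had 27.7% and 71.0%. The tatggtct group had 43.0% of 1129 MARWI-IP reads at 25 nt but 5 of 623 total reads (0.803%). The 30 nt length had 74.6% of its total reads. It starts 5 nt inside tggaatat, and its 25 nt form ends where the 30 nt form of tggaatat ends, at the base that led in that group. Of the pairs that start 5 nt apart, 7 of 1188 shared the commonest 3′ end in this way.

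Bases that differ from the longer form were looked for as a sign of added, untemplated bases. A read's last base was compared with the base that 95% or more of the group's longer reads, at least 100, have at that position. It alone differed in 20394 of 36205355 MARWI-IP reads compared (0.0563%, interval 0.0556 to 0.0571), the second-last base alone in 4351 (0.0120%), the third-last alone in 1383 (0.00382%) and the last 2 together in 267 (0.000737%). Of 12866 groups compared, 249 (1.94%) had any read with a differing last base, and 1 group, not printed, had 71.7% of all such reads. Without it the share was 0.0168%. For the second-last base alone 1 group likewise had 83.1% of the differing reads, and without it that share was 0.00203%. Outside the leading group, the 5764 differing last bases were T in 48.2%, G in 24.8%, A in 22.2% and C in 4.81%. The 5 leading groups, the first included, held 88.8% of all reads with a differing last base, so this composition rests on few groups. In total 7206 of 1772585 reads differed at the last base (0.407%), in 101 of 8763 groups, and 93.8% of these were in 1 group. Without that group the share was 0.0291%. The second-last base alone differed in 0.00564% of total reads, and in 0.00440% without its own leading group. Whether reads with untemplated bases were removed before deposit is not given in the sources used here, so these low shares do not show that such bases were absent from the RNA.

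The group of total that led for the last base starts as the 5′ part of tRNA-Gly, and the capital marks the last base.
tRNA-Gly, form 1: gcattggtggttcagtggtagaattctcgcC
tRNA-Gly, form 2: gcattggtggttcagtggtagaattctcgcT
Form 1 had 174599 total reads, 96.4% of the 31 nt reads of that group, and form 2 had 6576 (3.63%). In MARWI-IP they had 10877 (97.2%) and 312 (2.79%), so the variant was present at a like share in both libraries.

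At a length with 500 or more reads, the last base differed most often in the following 2 groups, where each first line is the differing form and each other line the form that matches the longer reads.
tgagttga, differing: tgagttgataaagtagttccctaccttgT
tgagttga, matching: tgagttgataaagtagttccctaccttgG
tggatcag, differing: tggatcagtaggttgctgagagcaacaggG
tggatcag, matching: tggatcagtaggttgctgagagcaacaggA
In tgagttga, 1403 of 1550 MARWI-IP reads of 29 nt (90.5%) ended in T, and 147 in the G that the longer reads have. In tggatcag, 462 of 1364 reads of 30 nt (33.9%) ended in G in place of A. The differing forms were also in the total library, with 60 and 32 reads. Without a genome a second locus that differs at this base was not tested as the source of these forms.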

How the data were processed

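Read counts per distinct sequence were deposited by the authors for MARWI-IP small RNA (24 to 33 nt only) and total small RNA (all deposited lengths, 14138166 reads). Per the labels' protocols both were prepared with the same small RNA library kit. How adapters were trimmed, lengths selected and reads mapped, and to which build, is not given in the sources used here. The MARWI-IP sum is that of a length class, not of the whole library.

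Sequences were grouped by their first 20 bases with Python 3.11.15 and numpy 2.4.6, and counts were summed within groups. A form is 1 distinct sequence. Bases beyond an end were read from sequences starting downstream (10 or more reads, 95% one base). Exact intervals used scipy 1.17.1. Grouping, end bases and differing last bases were checked on simulated libraries. No genome was used, so members have no coordinates or annotation here.

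Named groups are the 5 with most reads, the 3 highest and 3 lowest shares of 1 form among the 1000 most abundant, the 3 largest differences of mean length each way, the 3 highest shares of a differing last base and the 3 most abundant pairs 1 to 5 nt apart. Others were chosen after values were seen. Members, lists and rules were chosen with earlier results of these data known. Of the groups this rule names, 2 are not reported here. Alternatives changed the first bases used (18, 22), the read threshold (500, 5000), the template rule, the total minimum (30, 300) and the weighting.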

Additional observations from a re-analysis of the deposited data

How the results depend on the processing

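Of 61 recomputed values, 36 stayed within the 95% interval of the reported one and 25 moved outside it. For the medians of the commonest form and of the difference in mean length, that interval was taken from the ranked group values. The cause was not tested. The reported values were 76.5% of groups with a commonest length of 29 or 30 nt, a median commonest form of 57.0%, 38.2% mixed groups, 29.5% with T as last base, 0.0563% of reads with a differing last base, 82.4% with the same commonest length in both libraries and a median difference in mean length of -0.01 nt.

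With a threshold of 500 reads (22981 groups) they became 75.6% at 29 or 30 nt, 56.3% for the commonest form, 0.0552% differing last bases, 80.7% with the same length and -0.0241 nt. With 5000 reads (2730 groups) they became 78.5%, 58.8%, 35.5% mixed, 28.4% with last T, 0.0630%, 86.2% and -0.00357 nt. Weighting groups by their reads gave 82.5% at 29 or 30 nt, 30.1% mixed, 30.9% with last T and 87.8% with the same length. Asking the second length for 0.8 of the first, in place of 0.5, left 12.97% mixed groups.

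The share of differing last bases depended most on its rule and on few groups: 0.0582% with 22 first bases, 0.0513% with 20 longer reads, 0.0216% without the 10 most abundant groups and 0.00976% where 99% of the longer reads had to share the base. The same commonest length was found in 80.9% of groups with 300 or more total reads. The mean length difference was -0.00137 nt with 30 total reads, -0.0275 nt with 300, and 0.145 nt, with the sign changed, when total reads of all lengths were used, which adds lengths that MARWI-IP does not have. The base after the end, read from a group's own longer reads, was T in 27.6% of 7889 groups, and in 26.99% of 12311 groups when read from downstream sequences, an alternative chosen after seeing the data. With 1 column per library no replicate could be left out. No paired analysis was possible because the 2 MARWI-IP replicates are in 1 column and no result comes from a test.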
